A study of Mus musculus with 22 samples.

Results

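The 12 bladders described here are the 6 with the highest and the 6 with the lowest squamous score among 19 mouse bladders exposed to the carcinogen N-butyl-N-(4-hydroxybutyl)nitrosamine (BBN), out of 22 bladders in all. They were chosen by their measured levels: the score of an array is the mean level of Lor, Krt10, Hrnr, Lce3f and Sprr2d, 5 genes of keratinizing epithelium, after each gene was centred over the 19 arrays. Levels are log2 signals minus the 75th percentile of the non-control spots of the same array, so 0 is the level of that percentile and a difference of 1 is 2-fold. The brightest probe stood for each gene.

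Squamous-high bladders were both Upk2-Cre (Upk2-CreERT2; LSL-RFP), both Krt5-Cre (Krt5-CreERT2; LSL-RFP) and 2 of 4 Krt5-Cre R172H bladders (Krt5-CreERT2; LSL-RFP; Trp53R172H/+). On the squamous-low side stood the other 2 Krt5-Cre R172H bladders, 1 of 3 Krt5-Cre R270H (Krt5-CreERT2; LSL-RFP; Trp53R270H/+), 1 of 3 Upk2-Cre R172H (Upk2-CreERT2; LSL-RFP; Trp53R172H/+) and 2 of 3 Trp53 het bladders. Trp53 het mice carry 1 lost Trp53 allele by title and Trp53R270H/+ by genotype entry, with no Cre. A further 7 BBN bladders lay between (2 Krt5-Cre R270H, 2 Upk2-Cre R270H, 2 Upk2-Cre R172H and 1 Trp53 het), and 3 normal wild-type bladders received neither BBN nor tamoxifen. BBN was given for 24 weeks to every bladder of both sides, which were taken at 8 months of age; tamoxifen, which activates CreERT2, was given to all but the Trp53 het mice. Krt5 drives Cre in basal cells and Upk2 in luminal cells of the urothelium. RNA came from whole bladders by the protocol, so that a smaller number of squamous cells and less RNA per cell cannot be told apart; the normal samples are labelled as urothelium all the same. Both Upk2-Cre samples, both squamous-high, carry 1 code in the labels, as do Trp53 het replicates 1 and 2. On Upk2-Cre replicate 1, Xist and 0 Y-linked genes were well above background. On Upk2-Cre replicate 2, 4 Y-linked genes were, and Xist was not. Whether samples of 1 code are of 1 animal was not tested. With samples of 1 code averaged, 151 genes were called higher and 8 lower by the rule given further on, against 123 and 6 as reported, of which 106 and 3 were among them.

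Urothelium, the lining of the bladder, has basal cells marked by Krt5, Krt14 and Trp63 and luminal cells that carry uroplakins. Under squamous differentiation, basal-type cells mature as skin does. Early steps bring suprabasal keratins, involucrin and small proline-rich proteins. Late steps bring late cornified envelope (Lce) proteins, corneodesmosomes, kallikrein proteases and the lipids of the skin barrier.

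Scores ran between 1.42 (Upk2-Cre replicate 1) and 3.62 (Upk2-Cre replicate 2) on the squamous-high side, and between −3.84 (Krt5-Cre R172H replicate 3) and −1.25 (Trp53 het replicate 3) on the squamous-low side. The upper boundary is thin: Krt5-Cre R270H replicate 3, in rank 7, was 0.0036 below rank 6, and the next score was 1.81 lower. At the lower boundary, Upk2-Cre R172H replicate 3 stood in rank 13 with −0.84. The 5 score genes are the choice itself and are left out of everything that follows. Because the same arrays' values picked the sides, no gene of this comparison has a p-value, and the differences are described by their size, their SD and the overlap of the sides.

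**Figure D1:**
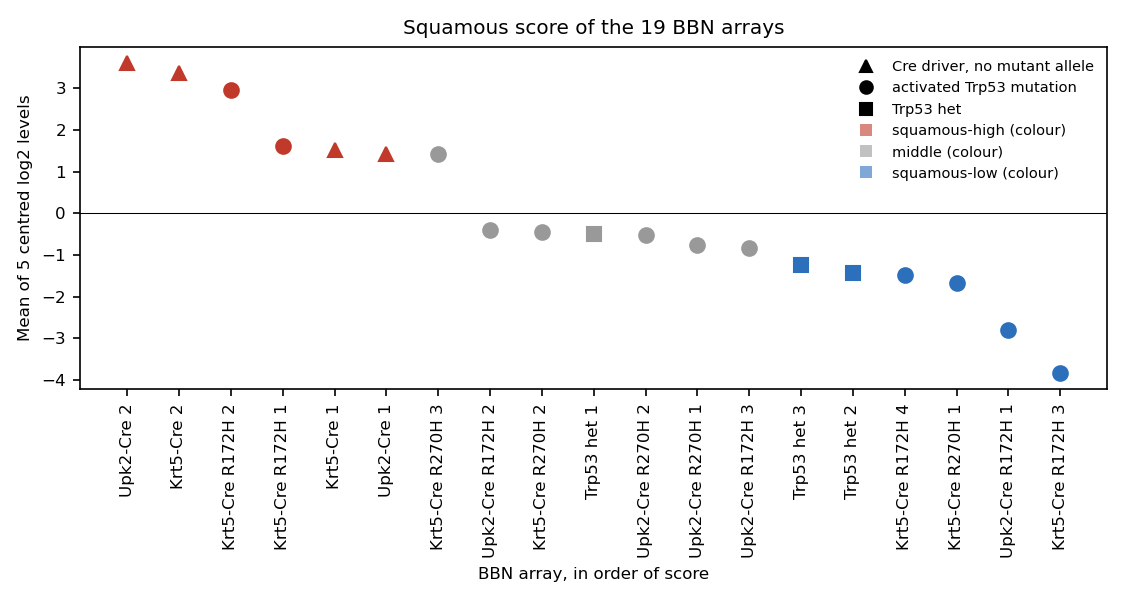
Squamous score (vertical axis, mean of 5 centred log2 levels) of the 19 BBN arrays in order of rank (horizontal axis). Colour gives the side and symbol the genotype class; the 4 bladders with a Cre driver and no mutant allele are all on the squamous-high side, and rank 7 lies level with rank 6.

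Labels that played no part in the choice were compared between the sides. An activated Trp53 mutation was carried by 2 of 6 squamous-high and 4 of 6 squamous-low bladders (Fisher's exact test, two-sided, p = 0.567). The 2 squamous-low Trp53 het bladders counted there as without an activated mutation. The driver was Krt5 in 4 of 6 squamous-high and 3 of 4 squamous-low bladders with a driver (p = 1, Fisher's exact test). Female sex labels numbered 4 of 6 and 2 of 6 (exact p = 0.567), Xist was well above background in 3 of 6 squamous-high and 4 of 6 squamous-low bladders (exact p = 1), and scanner A read 4 of 6 and 3 of 6 (exact p = 1). Spots well above background made up 49.6% ± 8.25 (SD, n = 6) on squamous-high and 55.7% ± 7.06 (n = 6) on squamous-low arrays (exact two-sided permutation test, p = 0.203). All 6 comparisons had a Benjamini-Hochberg adjusted p of 1, and with 12 arrays they can show only large differences. Of the arrays, 3 with under 45% of spots above background were all squamous-high. The labelled sex did not match Xist and the Y-linked genes on 3 of 6 squamous-high and 4 of 6 squamous-low arrays. It did not match on the 3 normal arrays either. Whether the label or the array is in error was not tested. All 4 bladders with a Cre driver and no mutant allele were squamous-high and 0 squamous-low. That split was not tested.

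Of 15688 genes measured (those well above background on 6 or more of the 19 BBN arrays), 123 were called higher, meaning that all 6 squamous-high arrays lay above all 6 squamous-low arrays and the means differed by at least 1, which is 0.784% of the genes. Only 6, or 0.0382%, were called lower by the mirrored rule. Without the size limit the numbers were 136 and 27. The median difference of all genes was −0.02. Among the 123 genes called higher, 76 differed by at least 3, 64 were well above background on all 12 arrays and 9 on no squamous-low array. The middle bladders' mean lay between the sides for 123 of the 123. The score had placed these bladders between the sides that the genes separate, so this was largely fixed beforehand. Relative to the normal bladders, 86 of the 123 had a normal mean below the squamous-low mean, 27 had it between the sides and 10 above the squamous-high mean. The normal arrays filled a slide of their own, so slide and normal state cannot be told apart. Another probe of the gene was measured for 23 of the 123, and its difference was above 0 for all 23 and at least 1 for 21.

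The largest differences were in late cornified envelope genes, which code for cross-linked proteins of the outermost cornified cells. Lce1e had lowest, median and highest levels of 0.65, 1.55 and 2.87 in squamous-high bladders, against −7.83, −5.27 and −2.14 in squamous-low bladders. The means were 1.68 ± 1.09 and −5.52 ± 2.07 (SD, n = 6 each), a difference of 7.20; only 2 of the 6 squamous-low arrays were well above background. Lce3b, well above background on 6 squamous-high and 5 squamous-low arrays, ran from 2.73 over 4.14 to 5.83 in squamous-high bladders, against −7.25, −2.01 and 0.98 in squamous-low bladders, and differed by 6.65. For both genes the highest squamous-low array lay below the lowest squamous-high array. Kprp, a keratinocyte proline-rich protein, averaged 2.40 ± 0.95 and −3.99 ± 2.44, a difference of 6.38. Lce1h was well above background on no squamous-low array and was at least 26.6-fold higher in squamous-high bladders. Further genes of this kind among the 15 highest were Lce1d (6.74), Lce3e (6.64), Lce1a1 (6.63), Lce3c (6.57), Lce3a (6.43), Lce1f (6.40), Lce1b (6.34), Lce1i (6.26) and Lce1g (6.08). Of these, Lce3c was well above background on 5 of the 6 squamous-low arrays, Lce3a on 4, Lce1g on 2 and the others on 3. Their differences thus rest in part on dim values. The Lce genes are near-copies of each other, and whether the probes read each other's RNA was not tested.

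In the whole list of cornified envelope and filaggrin genes, 25 of 52 measured members were called higher and 0 lower, with a median difference of 3.80 against −0.02 over all genes. All 52 had a difference above 0. On the scale of the mean centred level of these genes, the list stood at 1.06 to 2.77 in squamous-high and at −4.11 to −0.47 in squamous-low bladders. By gene family, whether listed or not (Lce1j, Lce1k, Lce6a, Sprr2a2 and Sprr2j-ps are in no list), Lce genes were called higher in 17 of 20 cases, with a median difference of 6.20, and small proline-rich (Sprr) genes in 1 of 12 cases, with a median difference of 1.81. The difference between the families was not tested. Lce3f and Sprr2d, which helped to choose the sides, are of these families, so these counts are not independent of the choice. Sprr differences ran between 0.49 and 5.66, and Sprr1b (4.21), Sprr2h (4.09), Sprr2e (4.07) and Sprr3 (2.72) were not called because the sides overlapped. Sprr1a averaged 7.37 ± 0.57 in squamous-high and 6.0 ± 0.86 in squamous-low bladders, and Sprr2a2 8.86 ± 0.49 and 8.37 ± 0.93, both with overlapping ranges; these Sprr genes were named after their values were seen. Ivl, involucrin, an early envelope protein, averaged 1.72 ± 0.90 and 0.53 ± 0.87, also overlapping, and was at 3.60 in normal bladders. The called Sprr gene was Sprr2i, at 0.69 ± 1.48 and −4.96 ± 1.17. Flg was not analysed here.

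Many of the genes named so far are neighbours on a chromosome. From S100a7a to S100a10 on chromosome 3, in the order of the GRCm38.p6 annotation, lie 48 measured genes of the epidermal differentiation complex. This cluster holds most envelope genes. Of the 48 genes, 23 were called higher. Score genes Lce3f and Sprr2d are of the Lce and Sprr families of this block. Calls there are therefore not independent of the choice of sides. The block is not uniform: S100a10 and S100a11 at its end each differed by 0.07, Tchh, which codes for a hair follicle protein, by 0.24, and Lce1l by 0.66 beside Kprp. On chromosome 7, 10 of the 11 measured genes from Klk14 to Klk5 were called, with 2310002F09Rik (0.65) as the exception, while 0 of 6 from Klk4 to Klk1b5 were, where the median difference was 0.61.

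**Figure D2:**
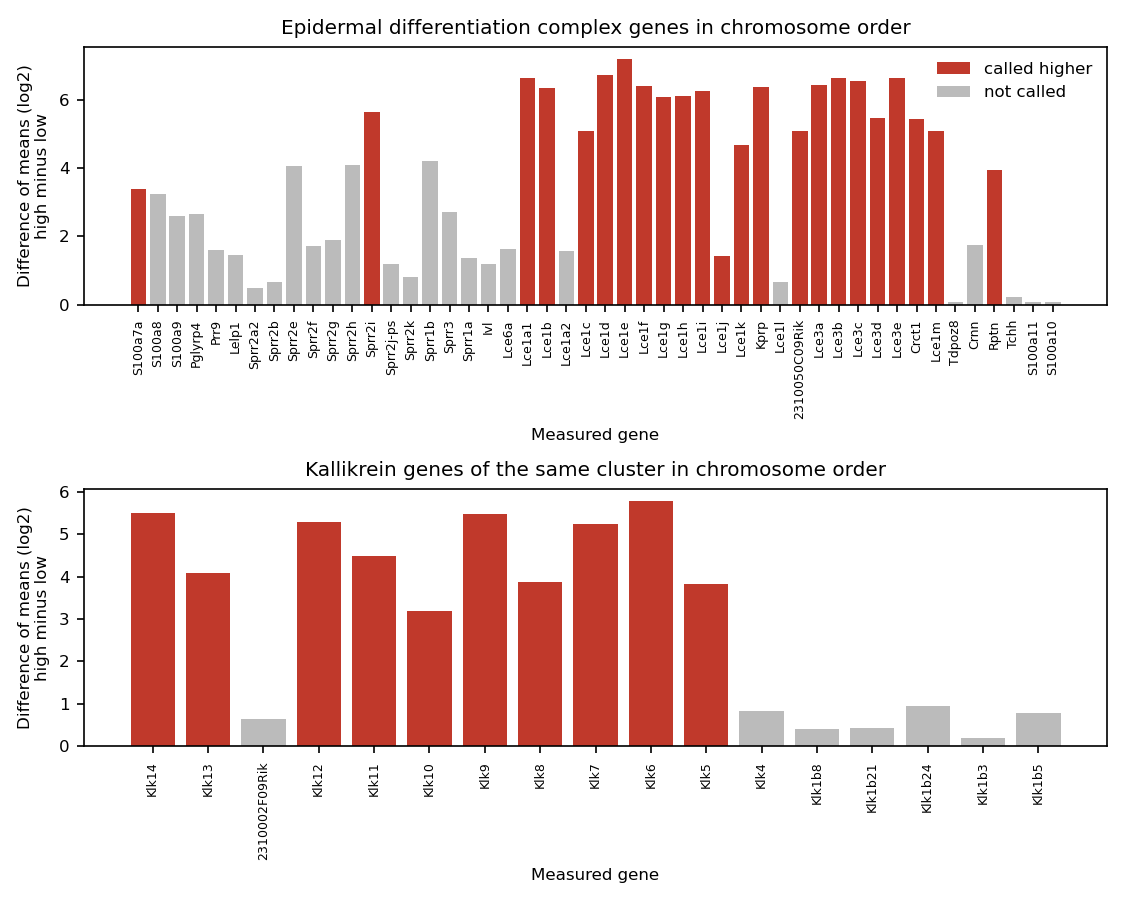
Difference of means, squamous-high minus squamous-low (log2, vertical axis), of the measured genes in chromosome order, for the epidermal differentiation complex (upper panel) and the kallikrein cluster (lower panel). Red bars are called higher; 23 of 48 genes are red in the upper panel, and 10 of the 11 from Klk14 to Klk5 in the lower panel.

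Promoters of these genes were read from RefSeq on GRCm38.p6 (250 bases before to 50 after the start); 93 of the 123 genes called higher had one. The TATA box (TATAAA, either strand) was in 17.2% of the 93 and in 8.95% of 12399 promoters of measured genes. The AP-1 motif (TGANTCA) was in 15.1% and 5.80%, the Grainyhead-like motif (AACNNGTT) in 6.45% and 3.52%, and the KLF motif (CACCC) in 69.9% and 62.6%. Shown here are the promoters of the 5 genes of largest difference that hold a TATA box or AP-1 match, which is in capitals, since these genes lie side by side or move together; a match describes the letters, not binding.
Lce1d, chr3:92687161-92687460, minus strand: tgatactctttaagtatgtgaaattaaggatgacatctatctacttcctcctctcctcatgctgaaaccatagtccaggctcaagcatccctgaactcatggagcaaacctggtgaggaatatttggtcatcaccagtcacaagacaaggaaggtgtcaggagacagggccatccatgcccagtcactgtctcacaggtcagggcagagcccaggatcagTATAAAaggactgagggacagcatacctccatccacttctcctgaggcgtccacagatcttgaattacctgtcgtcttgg
Lce3e, chr3:92966811-92967110, plus strand: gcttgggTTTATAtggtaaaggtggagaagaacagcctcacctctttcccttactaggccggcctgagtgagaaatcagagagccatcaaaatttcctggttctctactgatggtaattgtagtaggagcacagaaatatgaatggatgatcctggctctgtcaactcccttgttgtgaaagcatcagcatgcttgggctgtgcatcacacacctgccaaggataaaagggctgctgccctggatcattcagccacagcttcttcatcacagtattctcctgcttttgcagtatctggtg
Sprr2i, chr3:92407741-92408040, plus strand: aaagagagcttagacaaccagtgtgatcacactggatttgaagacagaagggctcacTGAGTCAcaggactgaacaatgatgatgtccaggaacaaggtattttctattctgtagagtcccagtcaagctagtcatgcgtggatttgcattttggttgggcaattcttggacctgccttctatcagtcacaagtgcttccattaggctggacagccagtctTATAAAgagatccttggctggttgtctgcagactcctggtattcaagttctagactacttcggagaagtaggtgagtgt
Psors1c2, chr17:35532951-35533250, plus strand: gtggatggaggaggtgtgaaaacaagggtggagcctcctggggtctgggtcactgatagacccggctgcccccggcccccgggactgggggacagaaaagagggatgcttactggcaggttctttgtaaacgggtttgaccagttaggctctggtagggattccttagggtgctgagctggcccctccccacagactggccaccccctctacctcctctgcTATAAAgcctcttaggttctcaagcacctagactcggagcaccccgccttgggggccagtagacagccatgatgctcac
Lce1m, chr3:93019012-93019311, minus strand: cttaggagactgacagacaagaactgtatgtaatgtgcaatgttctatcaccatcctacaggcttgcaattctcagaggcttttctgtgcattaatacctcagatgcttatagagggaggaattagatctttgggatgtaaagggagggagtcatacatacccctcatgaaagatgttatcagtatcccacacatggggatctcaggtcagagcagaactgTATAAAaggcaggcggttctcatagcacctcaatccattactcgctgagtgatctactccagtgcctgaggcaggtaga
Of these, only Sprr2i had an AP-1 match, in addition to its TATA box. The Psors1c2 gene, next to the corneodesmosin gene Cdsn on chromosome 17, was called higher together with it.

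Epidermal proteases and their inhibitors, which cut and control the links between cornified cells, had 15 of 32 measured members called higher and 0 lower, with a median difference of 3.42. All 10 kallikreins from Klk5 to Klk14 were among them. For the 7 that were well above background on at least 1 squamous-low array the differences were 3.20 to 5.49. Klk9 ran at 1.98, 2.67 and 4.35 (lowest, median, highest) in squamous-high bladders, against −5.05, −2.64 and −0.04 in squamous-low bladders, well above background on all 12 arrays, and differed by 5.47. Klk12 averaged 2.45 ± 1.18 and −2.84 ± 2.60, and its other probe differed by 3.86. Klk5, Klk6 and Klk7 were well above background on no squamous-low array and were at least 3.14-fold, 21.7-fold and 9.31-fold higher in squamous-high bladders. Klk14 was so on 1 squamous-low array. Spink5, the inhibitor of these proteases in skin, was higher by 3.55, at 4.08 ± 0.92 and 0.53 ± 1.70, so enzymes and inhibitor stood together.

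Corneodesmosin, Cdsn, which holds cornified cells together, was higher by 5.48, with levels of 2.48 to 5.23 in squamous-high and −4.91 to −0.22 in squamous-low bladders. The desmosome list had 4 of 16 members called higher: Cdsn, the desmosomal cadherins Dsg1b (5.19) and Dsc2 (2.07), and Ppl, periplakin (1.18). Its median difference was 1.03. The plaque genes Dsp (1.0), Pkp1 (0.73) and Jup (0.65) were not called; they were named after their values were seen.

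Lipid barrier genes had 7 of 28 members called higher and a median difference of 1.73. Alox12b, a lipoxygenase needed for the skin barrier, averaged 2.13 ± 1.17 in squamous-high and −2.88 ± 1.79 in squamous-low bladders, a difference of 5.0. Acer1, an alkaline ceramidase of epidermis, differed by 5.34 (well above background on 2 of 6 squamous-low arrays), Gsdma, a gasdermin of skin, by 4.53, and Abca12, the lipid transporter of lamellar granules, by 4.43. The ceramide genes Degs2 (3.05), Elovl4 (3.18) and Cers3 (1.82) were called as well; a second Degs2 probe differed by only 0.11. Degs2 and Cers3 were at 4.58 and 5.30 in normal bladders, above the squamous-high means of 2.72 and 4.55.

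Members of the IL-36, IL-17 and antimicrobial list were called higher in 6 of 17 cases, with a median difference of 1.46. Il1f6, which codes for IL-36 alpha, was at −0.71, 0.89 and 2.55 (lowest, median, highest) in squamous-high bladders, against −6.42, −5.70 and −4.33 in squamous-low bladders, on none of which it was well above background. It was at least 43.8-fold higher, and Il1f5, the IL-36 receptor antagonist, at least 21.8-fold. Agonist and antagonist were both higher. Among the defensins, Defb14 averaged 4.93 ± 1.20 and 0.13 ± 2.69, a difference of 4.79, with a further probe at 4.88, and Defb4 was at least 10.5-fold higher.

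**Figure D3:**
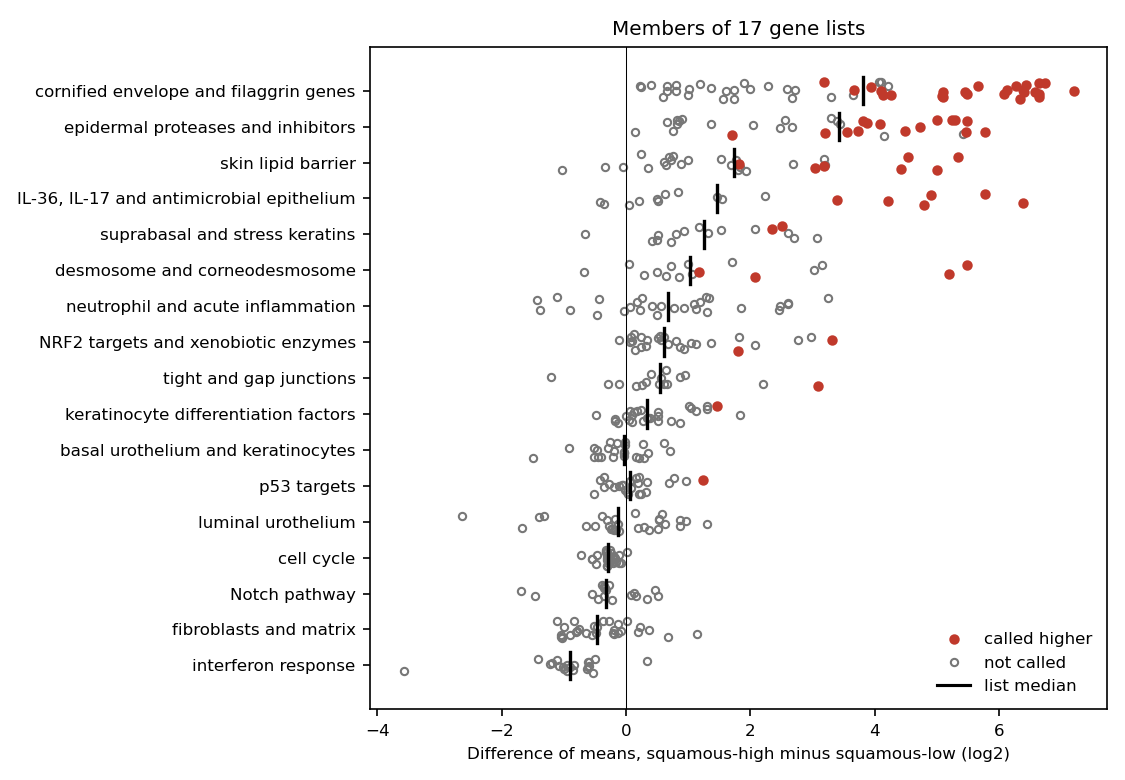
Difference of means, squamous-high minus squamous-low (log2, horizontal axis), of each measured member of 17 gene lists. Red points are called higher, open points are not, and bars are list medians; the cornified envelope median is 3.80 and the interferon median is −0.91.

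Suprabasal keratins, the filament proteins of maturing squamous cells, had 2 of 16 members called higher, with a median difference of 1.25. Krt78 averaged 1.66 ± 0.57 in squamous-high and −0.85 ± 1.10 in squamous-low bladders, and Krt80 −0.01 ± 0.19 and −2.36 ± 0.91. Another Krt80 probe differed by 0.89. Krt1, the partner of Krt10 in the epidermis, ran at 2.59, 3.96 and 5.76, against −0.38, 1.24 and 5.0, and was not called, since Trp53 het replicate 2 (5.0) and Upk2-Cre R172H replicate 1 (2.65) on the squamous-low side lay above the lowest squamous-high array. Stress keratins were abundant on both sides: Krt6a, chosen after its values were seen, averaged 9.12 ± 0.57 and 7.95 ± 0.96.

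No basal gene separated the sides by the rule. In the list of basal urothelium and keratinocyte genes, 0 of 25 members were called in either direction, and the median difference was −0.03. That count is near the share over all genes, of which 0.784% were called higher and 0.0382% lower. Krt5 averaged 8.96 ± 0.55 in squamous-high and 8.61 ± 0.73 in squamous-low bladders, Krt14 9.51 ± 0.72 and 8.90 ± 0.91, and Trp63, the basal transcription factor, 3.67 ± 0.30 and 3.46 ± 0.28. Normal bladders had 0.88 for Krt14. Keratinocyte differentiation factors had 1 of 28 members called, Ovol1, a zinc finger factor of epidermal differentiation, at −0.10 ± 0.61 and −1.56 ± 0.46. Gap junctions were represented by Gjb6, connexin 30, higher by 3.08, the only 1 called of the 16 genes in the junction list. Cldn17, a tight junction claudin in no list, was called higher by 3.76. Gjb6 was at 4.19 in normal bladders, above both sides, and Cldn17 at −7.00, below both.

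Luminal genes were likewise not called, in 0 of 29 cases, with a median difference of −0.13. This count too is near the share over all genes (0.784% higher, 0.0382% lower). Upk2 averaged −0.16 ± 1.93 and −0.03 ± 0.56, Gata3 4.33 ± 1.03 and 4.72 ± 0.53, and Pparg 1.80 ± 0.76 and 1.29 ± 1.07, against 6.16, 6.30 and 4.62 in normal bladders. Larger differences without a call were Vsig2 (−2.64), Upk3a (−1.67), Krt18 (−1.39) and Krt8 (−1.32). Upk3a ran at −4.80, −2.14 and −0.32 in squamous-high bladders, against −4.20, −0.39 and 2.37 in squamous-low bladders, with overlap.

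**Figure D4:**
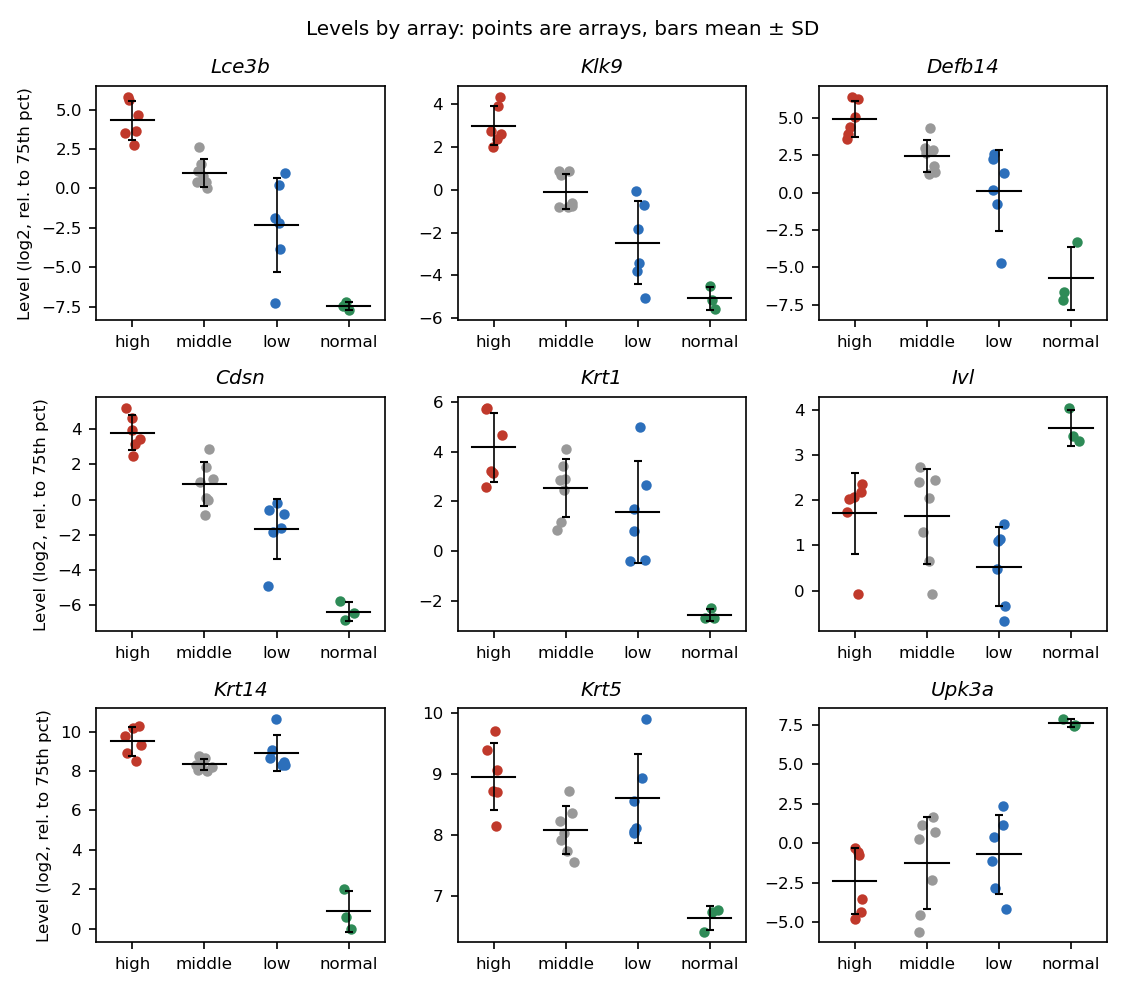
Levels of 9 genes by array (points) with mean and SD (bars), as log2 relative to the 75th percentile of the array (vertical axes), for squamous-high, middle, squamous-low and normal bladders. Lce3b, Klk9, Defb14 and Cdsn do not overlap between squamous-high and squamous-low bladders, while Krt1, Ivl, Krt14, Krt5 and Upk3a do.

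Trp53, the gene mutated in some of these mice, averaged 0.48 ± 1.04 in squamous-high and −0.03 ± 1.11 in squamous-low bladders, with wide overlap. Whether its probe tells the alleles apart was not tested. Of 25 p53 targets, 1 was called higher: Plk3, a polo-like kinase, at 2.19 ± 0.51 and 0.96 ± 0.79. Cdkn1a, which codes for the cell cycle inhibitor p21, averaged 2.41 ± 0.55 and 1.44 ± 0.90 and overlapped, and the median over the list was 0.06. Cell cycle genes were not called in any of 31 cases, which is near the share over all genes (0.784% higher, 0.0382% lower). Of them, 1 had a difference above 0 (median −0.28), and the largest, E2f1, was −0.72. Enzymes of foreign compounds included Cyp1b1, an Ah receptor target, called higher by 3.31 at 1.88 ± 1.05 and −1.42 ± 0.78, and Aldh3b2, higher by 1.80, 2 of 27 members of the NRF2 and xenobiotic list. By mean, both genes were highest in normal bladders, at 2.59 and 4.39.

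Neutrophil and acute inflammation genes were not called in any of 28 cases, and their median difference was 0.67. S100a8, a neutrophil alarmin also made by squamous cells, ran at 0.13, 3.43 and 5.33 in squamous-high bladders, against −1.58, −0.11 and 1.80 in squamous-low bladders. Interferon response genes had a median of −0.91, the lowest of all lists, with 0 of 21 called. Xaf1 averaged −0.25 ± 3.25 and 3.32 ± 0.59, with overlap and a second probe at −0.15. Retinoid genes had 0 of 19 called; Rbp2, an intestinal-type retinol carrier, differed by 3.30. Markers of other tissues were not called. Among smooth muscle genes 0 of 15 were called (median 0.54, list level −1.87 to 2.49 in squamous-high and −1.34 to 1.39 in squamous-low bladders). The others were 0 of 29 fibroblast genes (median −0.47), 0 of 20 lymphocyte genes (0.35) and 0 of 15 hair follicle, sebaceous and melanocyte genes (0.24). Over all genes, 0.784% were called higher and 0.0382% lower, so the 0 calls in each list of this paragraph are near that share.

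The 6 genes called lower were Hoxb8 (−3.81), Hoxb5 (−2.03), Prr36 (−1.69), Cdk14 (−1.40), Dusp9 (−1.30) and B4galt5 (−1.09). Hoxb8, a homeobox gene of posterior body identity, averaged −3.96 ± 0.88 in squamous-high and −0.15 ± 1.82 in squamous-low bladders. B4galt5, a galactosyltransferase, was the only 1 well above background on all 12 arrays, at 0.85 ± 0.47 and 1.94 ± 0.15. The other 5 were well above background on 3 of the 6 squamous-high arrays, and at least 2 of the 3 arrays where each was not were among the 3 dimmest, so their level there is a bound. With every level raised to a common floor, 4 of the 6 were called lower. With normexp background correction 1 of the 6 was, as in the deposited table and among genes well above background on all 12 arrays.

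**Figure D5:**
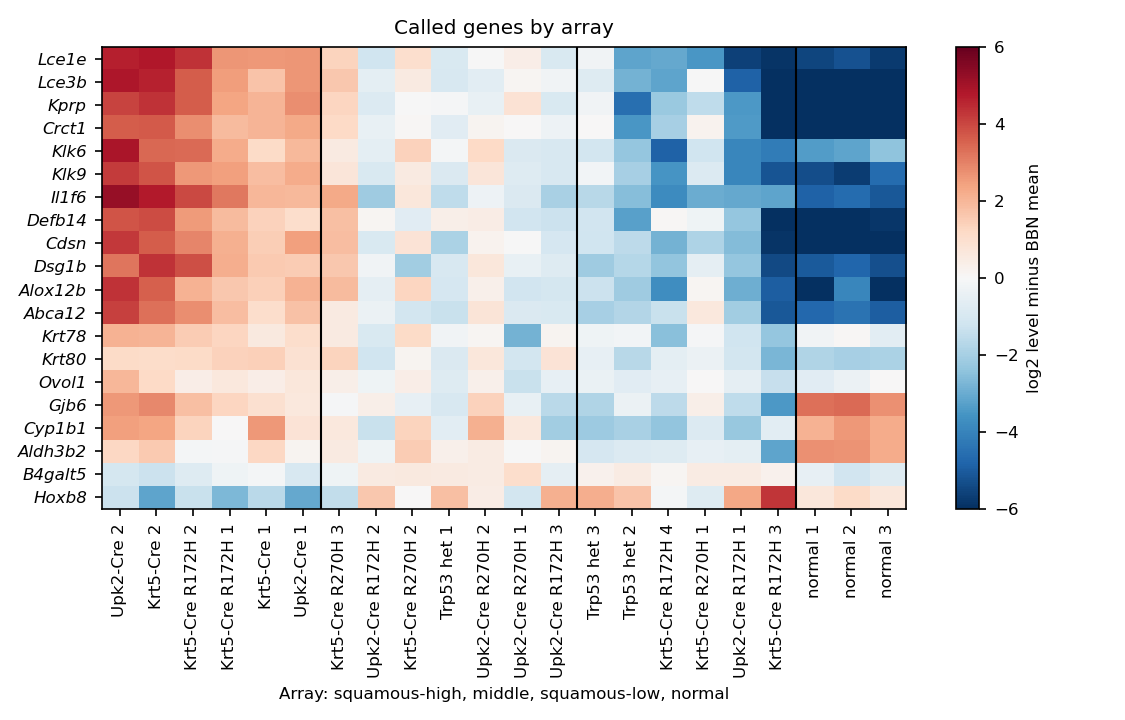
Levels of 20 called genes (rows) on 22 arrays (columns: squamous-high, middle and squamous-low in order of score, then normal), as log2 minus the mean of the 19 BBN arrays; colours end at 6 above and below. Most cells of genes called higher are red in squamous-high and blue in squamous-low bladders, with Aldh3b2 near 0 on 2 squamous-high arrays, and Gjb6, Cyp1b1 and Aldh3b2 are red in normal bladders too.

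The 4 Krt5-Cre R172H bladders, of 1 labelled genotype, were split 2 and 2, which allows the comparison without a difference in genotype. Genes that do not overlap over 12 arrays cannot overlap in a subset of them, so there only the size limit could end a call; 119 of the 123 met it, where 11.0% of all genes were called higher. The median difference of the cornified envelope list was 4.99. The 2 squamous-high arrays were read by scanner A and the 2 squamous-low arrays by scanner B, on different slides. The squamous-high arrays were also dimmer, with 43.0% and 42.4% of spots well above background against 62.5% and 62.9%. Scanner, slide, dimness and side cannot be told apart there. Within scanner A (4 squamous-high, 3 squamous-low arrays) 120 of the 123 met the size limit, where 2.84% of all genes were called, and within scanner B (2 and 3) 115 did, at 4.13%. The cornified envelope median was 2.66 within scanner A and 3.71 within scanner B. The interferon median, in contrast, was −1.82 within scanner A and 0.23 within scanner B, and the neutrophil median 1.14 and −0.20, so these directions differed between scanners. These are the same arrays that chose the sides and give no independent support.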

How the data were processed

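Whole-bladder RNA, 22 samples, was hybridised to 1-colour Agilent arrays. Per the file headers, the deposited spot intensities come from Feature Extraction 11.0.1.1 and are background-subtracted and spatially detrended, with no scaling between arrays. The submitters' processing notes name version 9.1 of that software, and limma. The deposited normalized table holds log2 values brought to a common distribution between arrays, and was used as an alternative.

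Flagged spots (53 to 301 per array) were left out, log2 intensities were scaled by the 75th percentile of each array, and spots of a probe were averaged. Of 56605 probes, 32994 carried 1 gene symbol (GRCm38.p6), 0 several and 23611 none. A flagged value removed 15 genes. No array had a saturated spot; the number of arrays limits the precision. Nothing in the labels says that all samples are separate animals, and 2 pairs of BBN samples share a code. The p-values therefore take each sample as a unit and hold for these samples only.

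Sides, calls, lists and named genes follow rules given in the text. Named were the 15 highest and 15 lowest called genes (only 6 were called lower; predicted genes, clone names, Xist and Y-linked genes skipped), up to 4 members of largest difference of each list described, and 12 fixed genes. The members and the 35 gene lists were chosen with earlier results of these data known. A fold written "at least" sets the squamous-high mean against, per squamous-low array, the higher of the gene's own signal and the lowest signal well above background. The calls were tested on simulated data. Alternatives were other backgrounds, scalings, filters, probe rules, side sizes, scanner, slide, mutation and Xist terms, arrays left out and a replicate block. Software was Python 3.11.15, numpy 2.4.6, pandas 2.3.3, scipy 1.17.1, matplotlib 3.10.9, R 4.3.3 and limma 3.58.1.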

Additional observations from a re-analysis of the deposited data

Results flagged for a closer look

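Within a side of 6 arrays, a lone array can stand far from the others. Among 296 gene and side combinations looked at for a lone array (2 of them for the share of spots), 16 had one by Dixon's test at its 95% level, which chance alone gives in about 1 of 20. On the squamous-low side, Krt5-Cre R172H replicate 3 was lowest for Acer1 (−7.94, the others −5.60 to −4.39), Aldh3b2 (−1.32, the others 0.82 to 1.35), Cdsn (−4.91, the others −1.85 to −0.22), Dsg1b (−7.83, the others −4.76 to −2.95) and Stfa1 (−0.84, the others 4.65 to 6.43). This is the array with the lowest squamous score. Also there, Trp53 het replicate 2 stood apart for Car9 (−1.25), Krt14 (10.7) and Scd1 (−2.07), Upk2-Cre R172H replicate 1 for Lrrn4 (−2.58), and Krt5-Cre R172H replicate 4 for Nlrc5 (−0.92). On the squamous-high side, Krt5-Cre R172H replicate 1 stood apart for Gata3 (2.27, the others 4.39 to 4.91), Ivl (−0.072, the others 1.74 to 2.36) and Retn (−2.94), Upk2-Cre replicate 2 for Cdk14 (−2.57), Krt5-Cre replicate 1 for Dhrs9 (−3.87) and Krt5-Cre replicate 2 for Lrat (0.069).

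Probes without a gene symbol were outside the comparison. Of 10510 such probes measured, 36 met the rule for a higher call and 25 that for a lower call; no gene is named for them here.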

How the results depend on the processing

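The number of genes called depends on how many arrays must not overlap, so smaller sides give more calls by construction. Against 123 higher and 6 lower, the counts were 213 and 20 with 5 arrays a side, 925 and 161 with 4, and 88 higher and 3 lower with 7. They were 445 and 135 within scanner A, 648 and 259 within scanner B, 726 and 563 without the arrays whose Xist goes against the sex label, 606 and 208 without the 4 Cre-only arrays, and 1731 and 869 in the Krt5-Cre R172H bladders alone. Without the 3 dimmest arrays 176 were called higher and 37 lower. A common floor gave 109 and 4. The Cre-only, Krt5-Cre R172H and dimmest-array alternatives, and a common floor, were chosen after seeing the data. The deposited table, with another normalization and 11260 genes measured, gave 66 higher and 1 lower, and the filter to genes well above background on all 12 arrays, which keeps 11340, gave 64 and 1. Normexp gave 2 lower genes, a term for slide 260 and 28, and a term for the activated mutation 14 lower; the cause was not tested for these or the deposited table. The fit with a replicate block called 192 higher and 35 lower; 97 of the 123 were among the 192. Deviations from the side means correlated with a median of 0.13 (−0.10 to 0.33) over 9 pairs of one number across the sides. Over 27 pairs of different numbers the median was −0.03 (−0.40 to 0.40). The ranges overlap and the same arrays recur in the pairs, so whether the numbers pair the samples cannot be told.

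With each of the 12 arrays left out in turn, 122 to 174 genes were called higher, and 6 to 19 lower; a called gene could be lost there only by the size limit. The lower count reached 19 without Krt5-Cre R172H replicate 1, 18 without Trp53 het replicate 2, 17 without Krt5-Cre R270H replicate 1, 13 without Krt5-Cre R172H replicate 4, 12 without Krt5-Cre replicate 1 or Upk2-Cre replicate 1, and 11 without Upk2-Cre R172H replicate 1. No called gene that is named changed sign in any alternative run, which leaving out arrays could not have shown. Under other rankings 10 to 12 of the 12 arrays kept their side; Krt5-Cre R270H replicate 3 entered the squamous-high side with quantile normalization, or with Lor, Krt10, Hrnr or Lce3f left out of the score, and Upk2-Cre R172H replicate 3 the squamous-low side with normexp, in the deposited table, or with Hrnr or Lce3f left out. All label comparisons kept their side of the threshold. Dim signal limits the lower calls and the folds of Lce genes on squamous-low arrays.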

Other observations

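Of the 123 genes called higher, 59 were in none of the gene lists. Genes of this kind, chosen after their values were seen, included Trex2, a DNA exonuclease of keratinocytes, Card14, a skin NF-kappaB adaptor (1.81), Fabp5, an epidermal fatty acid carrier, Il1r2, the decoy receptor of IL-1, and Scel, sciellin of the cornified envelope. A pair of annotated olfactory receptors was among them as well: Olfr700 averaged 3.54 ± 0.82 in squamous-high and −0.79 ± 2.27 in squamous-low bladders (SD, n = 6 each), and Olfr18 was higher by 3.68.

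Genes with a higher mean in normal bladders than on either side numbered 10 of the 123. They were Cyp1b1, Gjb6, Degs2, Xkrx, Ankrd35, Cers3, Card14, Aldh3b2, Esyt3 and Gpat2. For Cyp1b1, Ankrd35, Esyt3 and Gpat2 the normal mean was above the squamous-high mean by less than the squamous-high SD. Gpat2 was level, at −3.16 ± 0.52 in normal and −3.17 ± 0.70 in squamous-high bladders.

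Among the Hox genes, 9 of the Hoxb cluster were measured with a median difference of −2.03. Hoxb13, at the posterior end of the cluster, differed the other way. It was at 0.83 ± 0.35 in squamous-high and −1.47 ± 3.89 in squamous-low bladders (SD, n = 6 each), a wide spread on the squamous-low side. Hoxb3 was above 0 as well, at 0.20. The 28 measured genes of all Hox clusters had a median of 0.20.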
